A study of Mus musculus with 4 samples.

Results

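The 36 genes described here are members of the Notch signalling pathway, taken by gene symbol from a list of receptors, ligands, targets and processing factors, and each matched 1 of the 52636 Ensembl genes in the count tables. They were measured by RNA-seq in tdTomato+ cells sorted by FACS from embryonic mouse kidneys at E12.5 to E12.75, 48 h after tamoxifen was first given. Control embryos carried 1 Eya1CreER allele and the R26-tdTomato reporter, and Eya1cKO embryos carried the same alleles together with floxed Eya1, all on a mixed strain background. Tamoxifen activates the CreER recombinase, which switches on tdTomato and, in Eya1cKO, deletes Eya1. Since CreER is expressed from the Eya1 locus, both genotypes carry that altered allele, and tdTomato marks cells that had expressed Eya1 along with their progeny. Each genotype gave 2 libraries of 5000 cells, and the study's methods describe cell suspensions that were combined before sorting into separate portions. P-values below therefore measure the spread between these portions, which may be technical.

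The reads counted on genes numbered 35411905 and 37999342 in the Control libraries and 22239293 and 17457452 in the Eya1cKO libraries. Eya1 itself had 6612 and 6420 reads in Control and 377 and 219 in Eya1cKO, which was 180 ± 12.6 against 14.6 ± 2.97 CPM (counts scaled to library size with edgeR's TMM factors; mean ± SD, n = 2) and a log2 fold change of -3.60 (SE 0.18, edgeR adjusted P = 1.95e-04). The sorted fractions differed in their marker genes. All 7 nephron progenitor markers, a list that counts the deleted gene Eya1, fell in Eya1cKO, whereas 8 of 9 endothelial, 5 of 6 podocyte, 6 of 6 adrenal cortex and 6 of 8 sympathoadrenal and neural markers rose. Reads lying on no gene made up 12.9% to 13.9% of all recorded reads in Control and 20.9% to 22.7% in Eya1cKO. In such bulk samples, fewer cells of a type and less RNA per cell cannot be told apart.

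Notch receptors are single-pass membrane proteins that are activated by ligands on neighbouring cells. The ligands belong to the Delta-like and Jagged families, and Mib ubiquitin ligases drive the ligand endocytosis that pulls on the receptor. The metalloproteases Adam10 and Adam17 then cut the receptor outside the membrane, and the gamma-secretase complex cuts it within the membrane. The freed intracellular domain joins the DNA-binding protein RBPJ and a Mastermind-like coactivator, and the trimer activates genes of the Hes and Hey families, which encode repressors of the basic helix-loop-helix class. In the kidney, Notch signalling is known for its part in the passage of nephron progenitors to differentiated nephron epithelium, with Notch2 as a main receptor and Jag1 and Dll1 among the ligands, and it also acts in vascular and mural cells.

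RBPJ binds DNA at the core word TGGGAA, so promoter windows from 250 bases before to 50 bases after the transcription start were searched for it on both strands. RefSeq windows (GRCm38.p6) were matched for 31 of the 36 members. No window was available for Hes1, Hey1, Heyl, Mfng and Mib1, so these genes were not searched. At least 1 core word was found for 10 of these 31 genes (32.3%), against 28.3% of the 27025 genes with a window. The longer word NGTGGGAA, which contains the core, was found for 6 of the 31 (19.4%), namely Aph1a, Hes5, Hes7, Hey2, Lfng and Psen2, against 7.23% of all genes. CACNAG, the N-box that Hes proteins bind, was found for 14 of the 31 (45.2%) against 46.1% of all genes. The windows of Hes5, Hey2 and Lfng are shown because each is a textbook Notch target and each holds the core word at 2 places, as does 1 window of Rbpj. The window of Jag1, the most abundant ligand, is shown as one in which the word was not found. Capitals mark TGGGAA or its reverse complement, and each sequence is written 5′ to 3′ on the strand of its gene.
Hes5, chr4:154960673-154960972, plus strand: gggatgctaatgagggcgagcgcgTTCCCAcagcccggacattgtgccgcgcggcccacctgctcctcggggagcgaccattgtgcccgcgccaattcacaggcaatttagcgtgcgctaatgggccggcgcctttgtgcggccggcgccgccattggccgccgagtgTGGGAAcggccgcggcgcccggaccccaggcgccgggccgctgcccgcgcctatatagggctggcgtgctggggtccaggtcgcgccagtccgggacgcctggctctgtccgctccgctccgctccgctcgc
Hey2, chr10:30842734-30843033, minus strand: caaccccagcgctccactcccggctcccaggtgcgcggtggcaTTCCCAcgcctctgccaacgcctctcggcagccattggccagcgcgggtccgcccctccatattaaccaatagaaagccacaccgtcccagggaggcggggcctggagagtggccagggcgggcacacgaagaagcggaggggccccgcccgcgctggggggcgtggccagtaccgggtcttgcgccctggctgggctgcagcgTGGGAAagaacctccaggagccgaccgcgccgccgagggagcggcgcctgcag
Lfng, chr5:140607091-140607390, plus strand: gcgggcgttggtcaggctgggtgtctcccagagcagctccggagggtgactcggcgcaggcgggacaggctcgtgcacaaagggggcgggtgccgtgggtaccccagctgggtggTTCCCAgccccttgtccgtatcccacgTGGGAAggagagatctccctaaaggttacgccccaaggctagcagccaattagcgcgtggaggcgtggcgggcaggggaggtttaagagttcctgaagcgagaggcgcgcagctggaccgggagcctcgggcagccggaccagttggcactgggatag
Jag1, chr2:137116471-137116770, minus strand: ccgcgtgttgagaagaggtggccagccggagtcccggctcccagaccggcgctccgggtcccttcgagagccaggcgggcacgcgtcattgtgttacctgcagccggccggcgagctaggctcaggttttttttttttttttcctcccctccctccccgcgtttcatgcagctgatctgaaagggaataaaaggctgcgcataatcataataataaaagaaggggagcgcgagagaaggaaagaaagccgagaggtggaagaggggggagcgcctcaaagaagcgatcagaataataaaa
The words of Hes5 begin 226 and 82 bases before the start, those of Lfng 135 and 108 bases before it, and those of Hey2 207 and 3 bases before it. These 3 genes differed in level, as given below. Hes5 had 6 and 7 reads in Control and lay below the limit of 3 counts in both Eya1cKO libraries. Lfng was well expressed, and the values of Hey2 differed between the Eya1cKO libraries. A matching word is a description of the sequence and no evidence of binding.

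Of the 36 members, 33 passed the filter on low counts and were tested together with all 19041 genes that passed it. The ligand Jag1 and the target Hey1 fell in Eya1cKO, and Ncstn, a subunit of gamma-secretase, rose. The other 30 members did not pass an adjusted P of 0.05 in edgeR's quasi-likelihood test. Thus 2 of 33 members fell, where 4.41% of all genes tested fell, and 1 of 33 rose, where 5.15% of all genes rose. These shares are near the background and are no result about the members as a group. Both Eya1cKO libraries lay below both Control libraries for 11 of the 33 members (30.0% of all genes) and above them for 12 (25.3% of all genes), and for 10 members the libraries of the genotypes overlapped. The median log2 fold change was 0.04 over the members and 0.02 over all genes, with 16 negative and 17 positive values that ran from -1.12 for Hey1 to 3.30 for Dll3. An unadjusted P under 0.05 was found for 13 of the 33 members and for 28.8% of all genes tested. DESeq2's Wald test called 4 members higher (Dll3, Pofut1, Ncstn and Mib2) and 3 lower (Jag1, Hes1 and Hey1), where it called 8.75% of all genes higher and 6.29% lower. Thus the receptors, nuclear complex, metalloproteases and Numb proteins held no call with either tool.

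**Figure D1:**
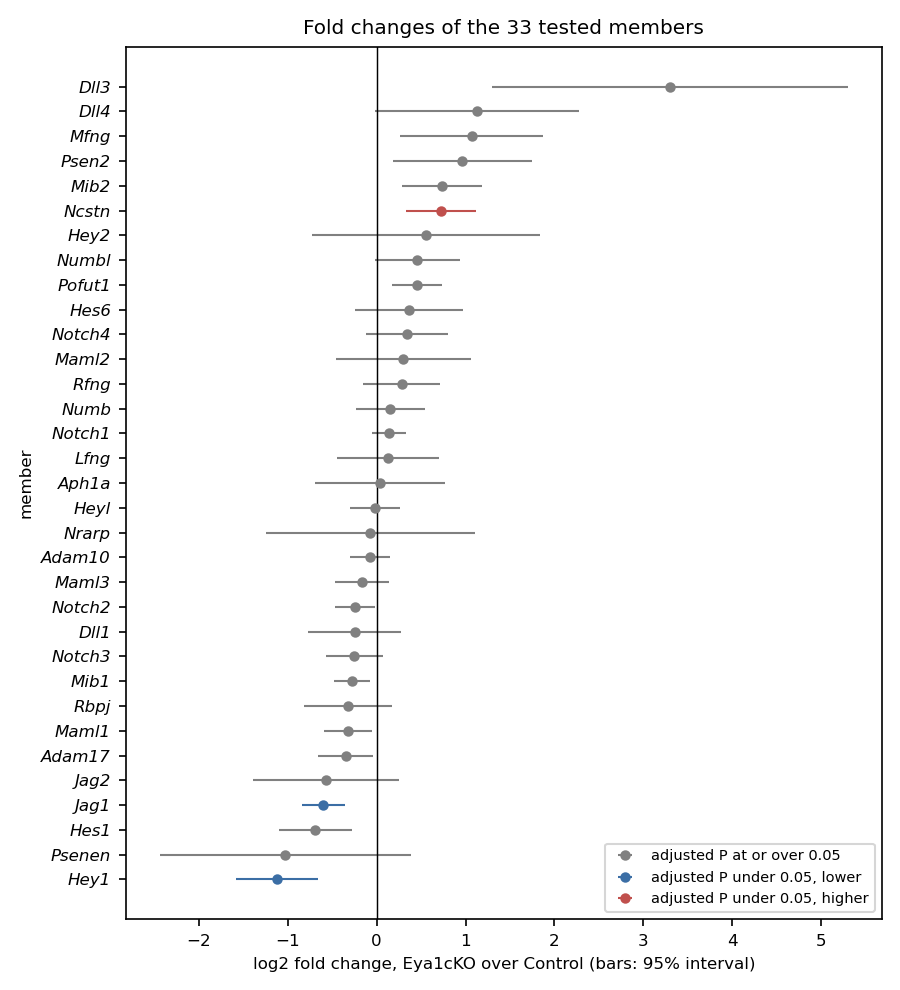
Log2 fold change of each tested member, Eya1cKO over Control, with 95% intervals from edgeR's quasi-likelihood fit on 2 libraries per genotype. Jag1 (-0.60) and Hey1 (-1.12) lie below 0 and Ncstn (0.72) above it with an adjusted P under 0.05, and Dll3 has the largest value and a wide interval (1.30 to 5.30).

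The levels spanned a wide range. Per kilobase of exon, the most abundant members in Control were Adam10 at 44.4, Jag1 at 39.0, Hes1 at 32.5 and Notch2 at 30.0 CPM per kb. In Eya1cKO the mean levels were 42.1 for Ncstn, 41.9 for Adam10, 27.1 for Hes6, 25.9 for Jag1 and 25.5 CPM per kb for Notch2, but the libraries differed in order. Ncstn led in Eya1cKO 1 (49.6 against 44.4 CPM per kb for Adam10) and Adam10 led in Eya1cKO 2 (39.5 against 34.5). Hes6 was at place 3 of the members in Eya1cKO 1 and place 9 in Eya1cKO 2. Hes1 stood at place 3 in both Control libraries, at place 11 in Eya1cKO 1 and at place 5 in Eya1cKO 2. Hey1 stood at places 12 and 10 in Control and at place 19 in both Eya1cKO libraries. Dll3 was the least abundant tested member in Control, at 0.27 CPM per kb.

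**Figure D2:**
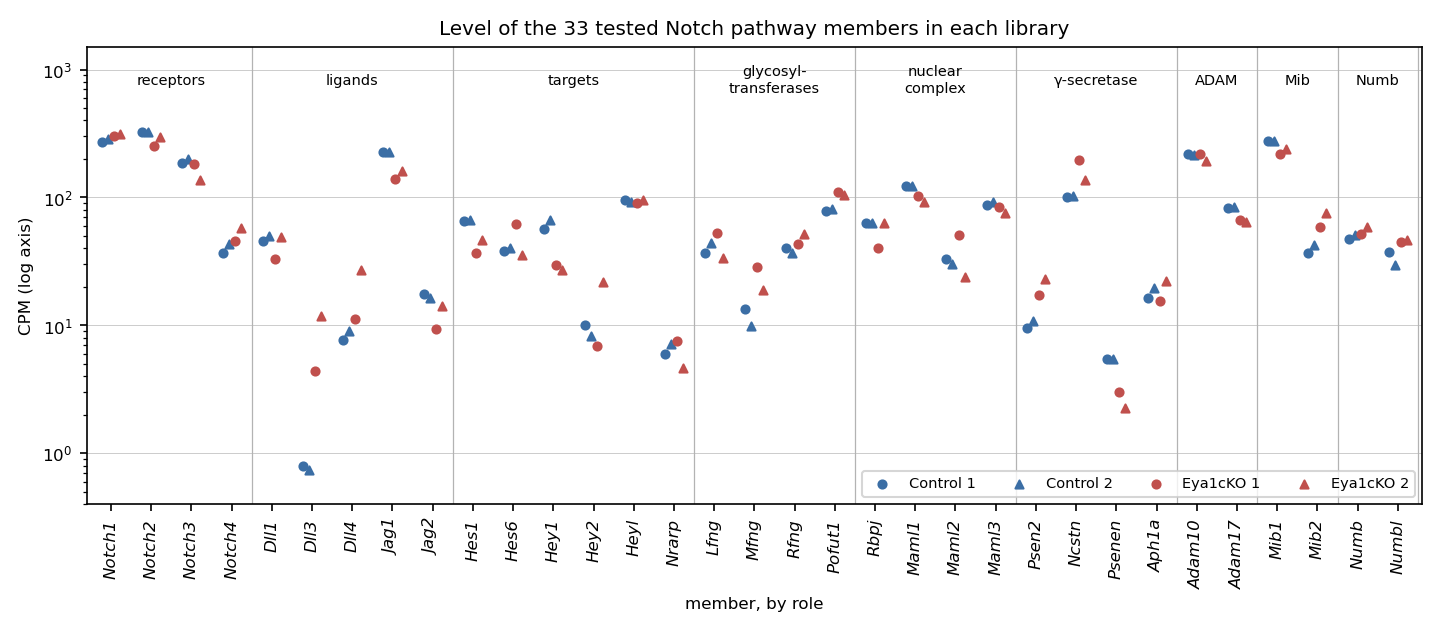
Level of each tested member in the 4 libraries, in CPM on a log axis, with members grouped by role. Control points of a gene sit close together, while Eya1cKO points are apart for Dll3, Dll4, Hey2, Hes6 and Maml2.

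All 4 receptors were expressed, and 0 passed edgeR's test, while 1 had an unadjusted P under 0.05. Notch2, the receptor most tied to nephron formation, had 11310 and 12101 reads in Control and 5694 and 5207 in Eya1cKO, or 324 ± 0.50 and 274 ± 31.7 CPM (log2 fold change -0.24, SE 0.10, edgeR adjusted P = 0.149). Notch1 had 9490 and 10781 against 6795 and 5536 reads, or 280 ± 11.4 and 308 ± 10.5 CPM (0.14, SE 0.08, adjusted P = 0.303). For both genes the genotypes did not overlap in CPM, Notch2 being lower and Notch1 higher in both Eya1cKO libraries. Notch3, known for its role in mural cells, had 6446 and 7419 against 4095 and 2407 reads (-0.25, SE 0.14, adjusted P = 0.268), and its CPM of 181 in Eya1cKO 1 was close to the Control values of 185 and 198 while that of Eya1cKO 2 was 137. Notch4, a receptor of endothelial cells, had 1296 and 1635 against 1035 and 1014 reads, or 40.4 ± 4.63 and 51.8 ± 8.48 CPM (0.34, SE 0.20, adjusted P = 0.301).

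Per kilobase of exon, the summed level of the receptors was 76.6 and 80.1 CPM per kb in Control and 72.6 and 73.8 in Eya1cKO. Notch2 made up the largest share of it in each of the 4 libraries, at 39.2% and 37.4% in Control and 32.2% and 37.3% in Eya1cKO. The share of Notch1 was 24.9% and 25.3% in Control and 29.1% and 30.0% in Eya1cKO, and that of Notch4 was 6.01% and 6.76% against 7.83% and 9.71%. Both shares were thus larger in both Eya1cKO libraries. The share of Notch3 was 29.8% and 30.6% in Control, 30.9% in Eya1cKO 1 and 23.0% in Eya1cKO 2, so that Notch3 held the place after Notch2 in 3 libraries and Notch1 held it in Eya1cKO 2.

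Among the ligands, Jag1 fell. It is a Jagged ligand of developing nephrons and of blood vessels, and its gene (ENSMUSG00000027276) lies on the minus strand at chr2:137081456-137116644. Control libraries held 7947 and 8513 reads of Jag1, and Eya1cKO libraries held 3155 and 2847. In CPM these were 228 and 227 against 140 and 162, so both Eya1cKO libraries were below both Control libraries and further from each other than the Control libraries were. The means of 227 ± 0.16 and 151 ± 16.0 CPM gave a log2 fold change of -0.60 (SE 0.10, 95% interval -0.84 to -0.36, edgeR adjusted P = 0.0163), or 66.4% of the Control level. The call was lost when either Control library was left out (adjusted P up to 0.440), a setting in which 15 genes were higher and 8 lower over the whole table without Control 1, and 16 and 7 without Control 2. Of the early nephron markers, 4 of 7, namely Lhx1, Wnt4, Fgf8 and Ccnd1, fell. Pax8 (log2 fold change -0.45), Cdh6 (0.06) and Pou3f3 (-0.03) did not pass the test. The summed level of the list was 1130 and 1143 CPM in Control and 637 and 700 CPM in Eya1cKO. Ccnd1, which the paper lists among cell cycle regulators, had the largest level in this sum. Its means were 468 CPM in Control and 253 CPM in Eya1cKO, so the sum does not measure early nephron cells alone. The part of early nephron cells in the fall of Jag1 was not tested.

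The other ligands did not pass the test. Dll1, the Delta-like ligand of early nephrons, had 1587 and 1863 reads in Control and 742 and 861 in Eya1cKO, and its 49.1 CPM in Eya1cKO 2 lay within the Control values of 45.4 and 49.8 while Eya1cKO 1 had 32.8 CPM (log2 fold change -0.25, SE 0.22, adjusted P = 0.504). Jag2 had 611 and 617 against 211 and 247 reads, or 17.0 ± 0.72 and 11.7 ± 3.35 CPM (-0.57, SE 0.35, adjusted P = 0.322). Dll4, a ligand of arterial endothelium, had 267 and 339 against 253 and 479 reads, or 7.65 and 9.05 against 11.2 and 27.3 CPM (1.13, SE 0.48, adjusted P = 0.178). Both Eya1cKO libraries were thus below Control for Jag2 and above it for Dll4, and for Dll4 the Eya1cKO libraries lay further apart than the genotypes' nearest values. Dlk2, a non-canonical ligand-like protein, had 0 and 21 reads in Control and 1 and 0 in Eya1cKO and was not tested. A count of 3 corresponds to 0.0859 and 0.0801 CPM in the Control libraries and to 0.133 and 0.171 CPM in the Eya1cKO libraries, which for Dlk2 leaves only Control 2 above that limit. Such limits cover counting error only.

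Dll3 had the largest fold change of the 33 tested members. Dll3 is a Delta-like protein that acts mostly inside the cell and is known from somites and from neural and neuroendocrine cells. Control libraries held 28 and 28 reads of it, and Eya1cKO libraries held 100 and 207, or 0.80 and 0.75 against 4.43 and 11.8 CPM. Both Eya1cKO libraries were far above both Control libraries, but the Eya1cKO libraries also differed from each other. The log2 fold change was 3.30 (SE 0.85, 95% interval 1.30 to 5.30, edgeR adjusted P = 0.0554), which did not pass the threshold, whereas it passed with DESeq2's Wald test (adjusted P = 5.54e-04) and with edgeR on genes with at least 10 counts in every library (adjusted P = 0.0264). Of the sympathoadrenal and neural markers, 6 of 8 rose and 1, Elavl4, fell, and their summed level was 31.4 and 35.9 CPM in Control and 358 and 395 CPM in Eya1cKO. The part of these cells in the values of Dll3 was not tested.

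Together the ligands amounted to 54.6 and 56.1 CPM per kb in Control and to 37.6 and 52.7 CPM per kb in Eya1cKO. Jag1 made up 71.5% and 69.6% of this sum in Control, 63.8% in Eya1cKO 1 and 52.8% in Eya1cKO 2. The share of Dll1 lay in all 4 libraries between 19.7% and 22.1%. Dll4 went from 3.64% and 4.19% in Control to 7.74% and 13.4% in Eya1cKO, and Dll3 from 0.52% and 0.47% to 4.13% and 7.85%. The summed ligand RNA level of Eya1cKO 2 was therefore close to Control with a different make-up, in which Dll3 and Dll4 took more of the sum and Jag1 less.

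**Figure D3:**
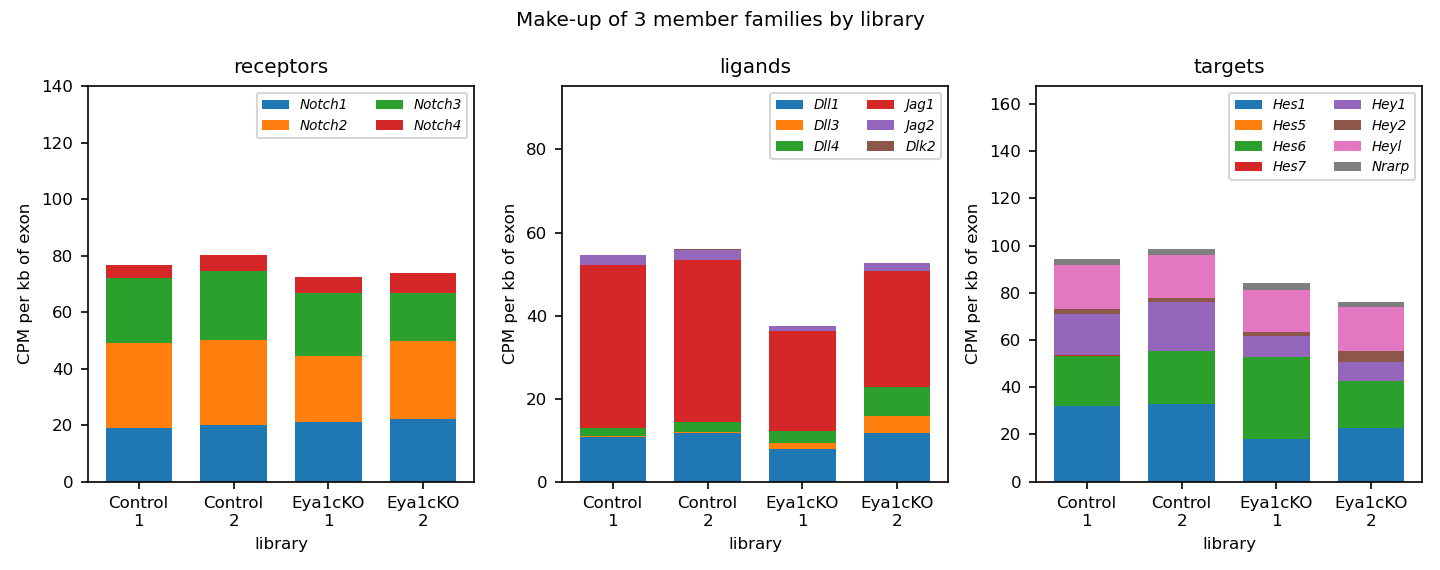
Stacked levels of the receptors, ligands and Hes, Hey and Nrarp targets in each library, in CPM per kilobase of exon. Jag1 makes up most of the ligand bars, from 71.5% in Control 1 to 52.8% in Eya1cKO 2, and Hey1 from 20.8% of the target bar in Control 2 to 10.7% in Eya1cKO 1.

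Of the 6 targets tested, Hey1 fell. It encodes a Hairy-related repressor that Notch signalling induces in many tissues, and its gene (ENSMUSG00000040289) lies on the minus strand at chr3:8663359-8667256. Its reads numbered 1974 and 2505 in Control and 665 and 475 in Eya1cKO, or 56.5 and 66.9 against 29.4 and 27.1 CPM. The Eya1cKO libraries were below the Control libraries by more than either pair differed. The means of 61.7 ± 7.33 and 28.3 ± 1.66 CPM gave a log2 fold change of -1.12 (SE 0.20, 95% interval -1.59 to -0.66, edgeR adjusted P = 0.0174), or 45.8% of the Control level. The call was lost when either Control library was left out (adjusted P up to 0.514), and the log2 fold change stayed between -1.26 and -1.01 with any 1 library left out.

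Hes1, the most widely used Notch target and the most abundant Hes or Hey gene per kilobase in Control, had 2283 and 2510 reads in Control and 831 and 810 in Eya1cKO. Its CPM of 65.4 and 67.0 against 36.8 and 46.2 did not overlap between the genotypes. The log2 fold change of -0.69 (SE 0.17, 95% interval -1.10 to -0.28) missed the threshold with an edgeR adjusted P of 0.0525 and passed it with DESeq2 (adjusted P = 0.0266) and on genes with at least 10 counts in every library (adjusted P = 0.0358). Heyl, another Hey-type target, which is known from vascular smooth muscle, had 3361 and 3455 against 2058 and 1669 reads. Its mean levels of 94.3 ± 2.81 and 93.1 ± 2.87 CPM gave a log2 fold change of -0.02 with a 95% interval of -0.30 to 0.26 (adjusted P = 0.935). Hey1 and Heyl thus had intervals that did not overlap, but the difference between them was not tested.

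The remaining targets varied between the Eya1cKO libraries. Hey2, a target with a part in arterial and heart development, had 349 and 312 reads in Control and 156 and 380 in Eya1cKO, which placed Eya1cKO 1 at 6.90 CPM below and Eya1cKO 2 at 21.7 CPM above the Control values of 9.99 and 8.33 CPM (log2 fold change 0.55, SE 0.54, adjusted P = 0.547). Hes6, which unlike most Hes proteins promotes neuronal differentiation and counters Hes1, had 1333 and 1502 against 1412 and 626 reads, with Eya1cKO 1 at 62.5 CPM above and Eya1cKO 2 at 35.7 CPM below Control (0.36, SE 0.26, adjusted P = 0.393). Hey2 and Hes6 therefore diverged in opposite ways between the Eya1cKO libraries. Nrarp, a small feedback inhibitor of Notch, had 210 and 267 against 170 and 82 reads (-0.07, SE 0.50, adjusted P = 0.945). Its exons overlap those of Gm38287 on the opposite strand over 79.4% of their length. The absence of reads on Gm38287 cannot show whether reads in the overlap were dropped, since the strand setting of the counting is unknown.

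Hes5 and Hes7 had too few reads for a test. Hes5, a target in neural progenitors and in early nephrons, had 6 and 7 reads in Control and 0 and 2 in Eya1cKO. Its exons overlap those of Gm20421 on the opposite strand over 31.8% of their length, so its reads are uncertain in the same way. Hes7, an oscillating gene of somite formation, had 10 and 14 reads in Control and 7 and 0 in Eya1cKO. The limit of 3 counts lies at 0.133 and 0.171 CPM in the Eya1cKO libraries, and the Control levels of Hes5 were 0.17 and 0.19 CPM, so a fall of Hes5 was not detectable at this depth. Summed over the 8 targets, the level was 94.1 and 98.6 CPM per kb in Control and 84.0 and 75.9 in Eya1cKO. The share of Hey1 was 18.4% and 20.8% in Control and 10.7% and 10.9% in Eya1cKO.

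The 4 members that glycosylate the receptors had positive fold changes, and 0 passed edgeR's test, while 2 had an unadjusted P under 0.05. Pofut1, which adds the O-fucose that Notch needs to bind ligands, had 2723 and 3023 reads in Control and 2514 and 1849 in Eya1cKO, or 79.4 ± 1.95 and 108 ± 4.14 CPM. Its Eya1cKO libraries were above both Control libraries with little spread, and the log2 fold change of 0.45 (SE 0.12, 95% interval 0.17 to 0.73, edgeR adjusted P = 0.0598) passed the threshold with DESeq2 (adjusted P = 0.0211), with library totals as the only scaling (adjusted P = 0.0486) and on genes with at least 10 counts in every library (adjusted P = 0.0497). The Fringe enzymes Lfng, Mfng and Rfng extend this fucose and shift the preference of the receptor between Delta-like and Jagged ligands. Mfng had 466 and 370 against 645 and 331 reads, or 11.6 ± 2.45 and 23.7 ± 6.84 CPM (1.07, SE 0.34, adjusted P = 0.101). Rfng had 1419 and 1382 against 982 and 902 reads (0.28, SE 0.19, adjusted P = 0.361). Lfng had 1296 and 1637 against 1202 and 588 reads, and its Eya1cKO values of 53.2 and 33.5 CPM lay on either side of the Control values of 37.1 and 43.7 CPM (0.13, SE 0.24, adjusted P = 0.769).

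In the nuclear complex, 3 of 4 members had negative fold changes and 0 passed edgeR's test, while 1 had an unadjusted P under 0.05. Rbpj, the DNA-binding subunit through which all 4 receptors act, had 2223 and 2356 reads in Control and 917 and 1105 in Eya1cKO. Its level in Eya1cKO 2 (63.0 CPM) was that of Control (63.7 and 62.9 CPM), while Eya1cKO 1 had 40.6 CPM (log2 fold change -0.32, SE 0.21, adjusted P = 0.360). The Mastermind-like coactivators Maml1 and Maml3 had 4275 and 4565 against 2318 and 1615 reads (-0.32, SE 0.12, adjusted P = 0.124) and 3027 and 3449 against 1889 and 1320 reads (-0.17, SE 0.13, adjusted P = 0.444). Both were lower in both Eya1cKO libraries. Maml2 had 1155 and 1125 against 1153 and 418 reads, or 33.1 and 30.0 against 51.0 and 23.8 CPM (0.30, SE 0.32, adjusted P = 0.584), with the Eya1cKO libraries on either side of Control.

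In the edgeR test used throughout, Ncstn was the only member called higher, and other settings on all 4 libraries called from 0 to 4 members higher. It encodes nicastrin, the subunit of gamma-secretase that receives its substrates, and its gene (ENSMUSG00000003458) lies on the minus strand at chr1:172066013-172082795. Its reads numbered 3532 and 3880 in Control and 4453 and 2408 in Eya1cKO, or 101 and 104 against 197 and 137 CPM. Both Eya1cKO libraries were above Control but differed from each other by more than the lower of them differed from Control. The means of 102 ± 1.75 and 167 ± 42.3 CPM gave a log2 fold change of 0.72 (SE 0.17, 95% interval 0.33 to 1.12, edgeR adjusted P = 0.0427). The call was lost without the low-count filter (adjusted P = 0.0995), with the older quasi-likelihood method (0.0884), with Control counts thinned to the depth of Eya1cKO (0.0791) and without either Control library (up to 0.572). The value was 0.41 without Eya1cKO 1 and 0.93 without Eya1cKO 2. Its exons overlap those of Copa over 4.91% of their length, and Copa had 12525 and 12583 reads in Control and 9763 and 7254 in Eya1cKO.

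The other gamma-secretase subunits did not pass the test. Psen2, a catalytic subunit, had 331 and 406 reads in Control and 394 and 403 in Eya1cKO, or 10.2 ± 0.96 and 20.2 ± 3.91 CPM (log2 fold change 0.97, SE 0.33, adjusted P = 0.112), with both Eya1cKO libraries above Control. Psenen, which activates the catalytic subunit, had 191 and 206 against 68 and 40 reads, or 5.49 ± 0.02 and 2.64 ± 0.52 CPM (-1.03, SE 0.60, adjusted P = 0.303), with both Eya1cKO libraries below Control. Aph1a, a scaffold of the complex, had 568 and 735 against 350 and 390 reads with overlapping CPM (0.04, SE 0.31, adjusted P = 0.953). The exons of Psenen and Aph1a overlap other genes over 9.33% and 12.9% of their length.

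The metalloproteases, ligand ligases and Numb proteins did not pass the test. Adam10, the main protease of ligand-activated Notch and the most abundant member per kilobase in Control, had 7697 and 8074 reads in Control and 4932 and 3401 in Eya1cKO, or 218 ± 3.39 and 206 ± 17.2 CPM (log2 fold change -0.08, 95% interval -0.30 to 0.15, adjusted P = 0.638). Adam17 had 2881 and 3156 against 1497 and 1132 reads, or 83.4 ± 1.26 and 65.4 ± 1.22 CPM (-0.35, SE 0.13, adjusted P = 0.136), and was lower in both Eya1cKO libraries. The ubiquitin ligases of Notch ligands diverged in sign. Mib1 had 9731 and 10366 against 4973 and 4203 reads, or 278 ± 1.29 and 230 ± 13.8 CPM (-0.28, SE 0.08, adjusted P = 0.0896). Mib2 had 1297 and 1605 against 1328 and 1332 reads, or 40.0 ± 4.05 and 67.3 ± 12.1 CPM (0.73, SE 0.19, adjusted P = 0.0584), and it passed with DESeq2 (adjusted P = 0.0136), with library totals as the only scaling (0.0491) and on genes with at least 10 counts in every library (0.0427). Numb and Numbl, intracellular inhibitors that promote receptor endocytosis, were higher in both Eya1cKO libraries. Numb had 1647 and 1912 against 1168 and 1024 reads (0.15, SE 0.16, adjusted P = 0.579), and Numbl had 1312 and 1104 against 1021 and 820 reads (0.46, SE 0.20, adjusted P = 0.191).

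The members described above as known from blood vessels or mural cells, which is not a full list of such members, had unlike values. These were 0.34 for Notch4, 1.13 for Dll4, 0.55 for Hey2, -0.25 for Notch3 and -0.02 for Heyl, of which 0 passed the test, beside the fall of Jag1. The sign of Hey2 depended on which Eya1cKO library was left out, and the 95% interval of Heyl (-0.30 to 0.26) included 0. The 9 endothelial markers summed to 624 and 635 CPM in Control and 1084 and 1157 CPM in Eya1cKO, and 8 of the 9 rose with a median log2 fold change of 0.82 over the list. The 8 mural markers summed to 330 and 352 CPM in Control and 633 and 593 CPM in Eya1cKO, and 4 of 8 rose, among them the smooth muscle marker Acta2 (1.09), while Tagln (-1.02) and Myh11 (-0.73) of the same list did not pass the test. None of these markers was at 0 in any library. The part of vascular cells in the values of Notch3, Notch4, Dll4, Hey2 and Heyl was not tested.

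How far the values rested on 1 Eya1cKO library was examined by leaving out each in turn, with the lone library assumed to vary like the Control libraries. The sign of the log2 fold change differed between these settings for 8 of the 33 members. Hey2 was 1.23 without Eya1cKO 1 and -0.42 without Eya1cKO 2, Maml2 was -0.41 and 0.68, Hes6 was -0.15 and 0.66, and Dll1 was 0.03 and -0.55. These 4 genes therefore showed a direction that the choice of library decided. Without Eya1cKO 1, 8 members were called higher and 7 lower, where 18.7% and 14.8% of all genes tested were. Without Eya1cKO 2, 8 members were called higher and 10 lower, where 19.8% and 15.5% of all genes tested were. Both settings use the same Control libraries, and many more genes were called in them than with all 4 libraries. Leaving out any 1 of the 4 libraries, Controls included, kept the log2 fold change of Jag1 between -0.72 and -0.50. That of Hey1 stayed between -1.26 and -1.01, and that of Ncstn between 0.41 and 0.93. The calls of these genes were lost without either Control library, as given above.

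**Figure D4:**
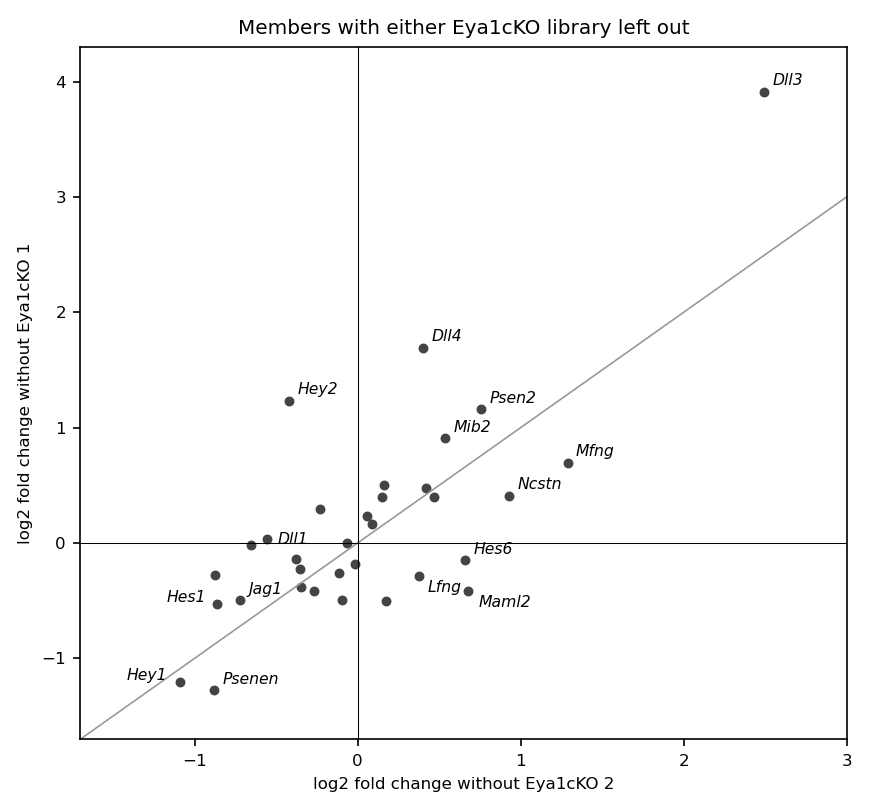
Log2 fold change of each tested member without Eya1cKO 2 (horizontal axis) and without Eya1cKO 1 (vertical axis), with a line of equal values. Hey2 lies at -0.42 and 1.23 and Maml2 at 0.68 and -0.41, on different sides of 0 in the 2 settings, while Jag1 and Hey1 lie below 0 and Ncstn above 0 on both axes.

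A further list of 34 pathway genes covered Deltex and other ubiquitin ligases, additional glycosyltransferases, corepressors, coactivators and non-canonical ligands. Of these, 30 were tested, 2 fell (4.41% of all genes) and 3 rose (5.15% of all genes), which is near the background, and their median log2 fold change was 0.02. The corepressors Spen and Ctbp2, which hold RBPJ targets silent when Notch is inactive, fell. Spen had 11618 and 12452 reads in Control and 6198 and 4270 in Eya1cKO (-0.36, SE 0.09, adjusted P = 0.0470), and Ctbp2 was at 151 ± 1.10 and 111 ± 9.97 CPM (-0.46, SE 0.11, adjusted P = 0.0484). Egfl7, a secreted endothelial protein that binds Notch receptors, rose from 28.4 ± 3.37 to 78.6 ± 18.3 CPM (1.49, SE 0.21, adjusted P = 0.00909). Dtx3, a Deltex-type ubiquitin ligase, rose from 126 ± 4.85 to 184 ± 12.4 CPM (0.54, SE 0.10, adjusted P = 0.0222). Eogt, which adds N-acetylglucosamine to the extracellular part of Notch, rose from 33.2 ± 1.17 to 64.0 ± 17.8 CPM (0.92, SE 0.22, adjusted P = 0.0488). All 5 calls were lost when either Control library was left out. Those of Spen and Ctbp2 were also lost with library totals alone (adjusted P of 0.0689 and 0.0598), and those of Spen, Ctbp2 and Eogt with legacy quasi-likelihood, with thinned Control counts and without the low-count filter. Without that filter Dtx3 had an adjusted P of 0.0520. Ctbp2 also missed the threshold with DESeq2's size factors (0.0543), and Ctbp2 and Eogt with robust quasi-likelihood (0.0531 and 0.0543).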

How the data were processed

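The authors sorted tdTomato+ cells, prepared random-primed strand-specific libraries, aligned reads to mm10 with HISAT2 and counted them with HTSeq on Ensembl genes. The deposited values are these read counts per gene, without normalization. Rows naming no gene (31.8% to 32.4% of recorded reads in Control, 44.2% to 46.1% in Eya1cKO) were left out. Tool versions and the strand setting of the counting are not given in the sources used here, so reads of 17 members whose exons overlap another gene are uncertain. The labels and the methods give different numbers of kidneys and females.

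The test used edgeR 4.0.16 under R 4.3.3, with filterByExpr (minimum count 10), TMM scaling, and glmQLFit and glmQLFTest on genotype, with Benjamini-Hochberg adjustment over all 19041 genes tested. A gene was called at an adjusted P under 0.05. Standard errors were obtained by dividing the size of each log2 fold change by the root of its F statistic. CPM use the TMM-scaled library totals, and exon lengths and gene coordinates come from GENCODE M21 (GRCm38), a later annotation than the counted one. The script was tested on simulated counts. Alternatives were other scalings and filters, DESeq2 1.42.0, robust and legacy quasi-likelihood, thinned Control counts, a replicate block, a rule combining adjusted P with fold and unadjusted P, and each library left out.

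The members and all lists were chosen with earlier results of these data known. All 36 members are named by role. Of the further pathway genes, those called are named, at most 6 in each direction. Results of some marker genes are not reported here.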

Additional observations from a re-analysis of the deposited data

How the results depend on the processing

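Counts of calls differed between settings. Over all genes, 981 were higher and 839 lower, against 1055 and 723 with library totals alone, 1136 and 1107 with at least 10 counts in every library, 548 and 507 without the low-count filter, 1777 and 1277 with DESeq2, 581 and 515 with legacy quasi-likelihood, 609 and 576 with thinned Control counts, 1580 and 1416 under the combined rule, and 15 to 4443 and 7 to 3482 with 1 library left out. Among the members, where 1 was higher and 2 lower, 3 were higher with library totals alone, 4 with at least 10 counts in every library and with DESeq2 (3 lower in both), 2 under the combined rule, and 0 without the filter, with legacy quasi-likelihood and with thinned counts. Leaving out 1 library gave 0 to 8 higher and 0 to 10 lower members. Of the further pathway genes, 3 were higher and 2 lower. The higher count was 1 without the filter, and the lower count was 1 with DESeq2's size factors and with robust quasi-likelihood and 0 with library totals, without the filter, with legacy quasi-likelihood and with thinned counts. Leaving out 1 library gave 0 to 9 of each. With 1 library left out, the spread between libraries is estimated only from the genotype that keeps 2 libraries, so those counts are not comparable with the rest. What caused the other differences was not tested.

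The replicate number shared by a Control and an Eya1cKO library came from the titles alone, and deviations from the group means correlated at 0.0062 between same-numbered libraries. With the number as a replicate block, 358 genes were higher and 263 lower, 0 members were higher and 0 lower, and 1 further pathway gene was higher and 0 were lower. In this edgeR fit the adjusted P was 0.0628 for Jag1, 0.0757 for Hey1 and 0.0992 for Ncstn. Of the further pathway genes called, it was 0.0477 for Egfl7, 0.0875 for Dtx3, 0.108 for Spen, 0.116 for Eogt and 0.135 for Ctbp2.

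Of the members' log2 fold changes, Heyl turned to 0.018 with library totals alone and Nrarp to 0.017 with thinned counts, where the median over all genes was 0.05 and 0.03. With 1 library left out, values crossed 0 for Dll1 (-0.55 to 0.031), Hes6 (-0.15 to 0.66), Hey2 (-0.42 to 1.23), Heyl (-0.066 to 0.0029), Nrarp (-0.51 to 0.17), Lfng (-0.28 to 0.38), Maml2 (-0.41 to 0.68) and Aph1a (-0.23 to 0.29). Among the other comparisons with all 4 libraries, 279 kept their side of the threshold, 10 passed it newly and 6 no longer passed. With 2 libraries per genotype no library could be tested as an outlier.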
